A study of Mus musculus with 10 samples.

Results

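Cholesterol is built from squalene by a chain of endoplasmic reticulum enzymes, and 9 genes of that chain are described here: Sqle, Lss, Cyp51, Msmo1, Nsdhl, Hsd17b7, Ebp, Sc5d and Dhcr7. They were chosen by their place in the pathway, with earlier results of these data known. All 9 were measured, each by 1 probe set, among 22180 genes tested. The data are Affymetrix whole-transcript arrays of mouse jejunum, 5 labelled Fed Knockout and 5 labelled Fed Control. Knockout mice were Pcyt1aLoxP/LoxP;VilCreERT2, with a floxed Pcyt1a gene and a tamoxifen-inducible Cre recombinase driven by villin regulatory sequence, that is, in cells of the gut epithelium. Control mice were Pcyt1aLoxP/LoxP without Cre. Both groups were females 10 to 12 weeks old, received tamoxifen on 5 days, ate a high fat diet for 3 days, fasted overnight and ate the same diet again for 2 hours before 3 cm of jejunum was taken. Pcyt1a encodes the enzyme that limits phosphatidylcholine synthesis, and the comparison asks how gene expression of the re-fed jejunum differs without it. Since only knockout mice carried Cre, effects of Cre activity and of Pcyt1a loss cannot be told apart. The segment holds all cells of the gut wall, and fewer cells of a type cannot be told apart from less RNA per cell.

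The enterocyte makes cholesterol as well as absorbing it, and exports it in chylomicrons. Sterol synthesis genes are textbook targets of SREBP2, a membrane-bound transcription factor that is released when sterols in the endoplasmic reticulum run low. SREBP2 acts with the factors NF-Y and Sp1, whose sites often lie beside its own sterol regulatory element. Mammals use oxygen at several of the steps from squalene, and the intermediates are sterols that the cell does not normally accumulate.

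Pcyt1a fell in knockout, with intensities of 151.4 to 202.5, against 493.5 to 727.3 in control (log2 difference -1.71, SE 0.11, limma adjusted p = 6.51e-05). Its 5 knockout arrays lay below all control arrays (two-sided exact permutation p = 0.00794, the smallest that 252 assignments can give). Median intensities of the arrays were 45.8 to 48.1, and arrays correlated at 0.972 to 0.993 across genes. Knockout 1 stood apart from the other knockout arrays in a list of ileum markers. Its list mean was -1.04 on the centred log2 scale, against 0.63 to 1.32 in knockouts 2 to 5 and -0.73 to -0.14 in controls. Fabp6, the ileal bile acid binding protein, spanned 4.31 to 11.2 log2 units in knockout, against 4.36 to 5.38 in control. Of the 6 ileum genes, 5 had higher values in knockout, 1 (Cubn) was lower and 0 passed the test. In the list of 10 enterocyte genes, among them Vil1 and Fabp2, 0 passed the test, 2 had higher values in knockout and 8 lower, with a median difference of -0.05. The list means of the knockout arrays (-0.12 to 0.06) and of the control arrays (-0.08 to 0.09) overlapped there.

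All 9 squalene to cholesterol genes had higher mean values in knockout, and 1 of them, Nsdhl, passed the test over all genes. The sizes were uneven. Sqle stood 2.32-fold higher, Cyp51 2.13-fold and Nsdhl 1.59-fold, while Lss and Msmo1 stood 1.34-fold and 1.23-fold higher and the remaining 4 genes 1.03 to 1.14-fold. The median log2 difference of the 9 was 0.30, against -0.000354 over all genes. Of all genes, 0.343% were called in either direction and 0.171% higher in knockout (limma, adjusted p under 0.05), 5.82% were higher at an unadjusted p under 0.05, and 49.9% had a higher mean in knockout. Among the 9, 4 were higher at the unadjusted threshold (Sqle, Lss, Cyp51 and Nsdhl). A difference of 1.5-fold or more upward was reached by 3 of the 9 and by 1.18% of all genes. Knockout arrays lay above every control array in 1 of the 9 and in 1.20% of all genes. The 9 genes share arrays and are not independent of each other. They were listed with earlier results of these data known, so the shares over all genes are a description only.

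Promoter letters are shown for 4 genes because the members share a textbook set of regulators. The genes are Cyp51 and Nsdhl, which stood furthest apart between the groups among members with a promoter in the RefSeq table used (build GRCm38.p6), and Msmo1 and Sc5d, which stood closer together. Sqle has no entry in that table. The letters are the 250 bases before the annotated start, 5′ to 3′ on the gene's strand. Capitals mark the NF-Y box CCAAT and the Sp1 box GGGCGG, each on either strand, the E-box CACGTG and the letters TCACCTCA. Cyp51 lies at chr5:4104698-4104947 (minus strand), Nsdhl at chrX:72918271-72918520 (plus strand), Msmo1 at chr8:64733579-64733828 (minus strand) and Sc5d at chr9:42264301-42264550 (minus strand).
Cyp51: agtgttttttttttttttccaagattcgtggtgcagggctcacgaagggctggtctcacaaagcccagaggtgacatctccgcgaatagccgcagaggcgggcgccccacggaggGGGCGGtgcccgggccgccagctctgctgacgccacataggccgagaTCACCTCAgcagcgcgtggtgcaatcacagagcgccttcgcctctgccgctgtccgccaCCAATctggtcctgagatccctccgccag
Nsdhl: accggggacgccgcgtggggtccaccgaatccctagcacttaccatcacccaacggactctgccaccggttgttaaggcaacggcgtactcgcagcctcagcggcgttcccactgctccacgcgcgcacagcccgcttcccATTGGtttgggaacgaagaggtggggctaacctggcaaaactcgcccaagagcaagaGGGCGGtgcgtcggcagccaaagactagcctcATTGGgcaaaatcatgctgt
Msmo1: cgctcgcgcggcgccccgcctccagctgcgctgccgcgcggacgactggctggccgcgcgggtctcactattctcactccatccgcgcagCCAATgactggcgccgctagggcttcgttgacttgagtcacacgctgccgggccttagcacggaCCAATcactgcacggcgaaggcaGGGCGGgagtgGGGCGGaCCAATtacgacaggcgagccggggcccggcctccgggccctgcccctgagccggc
Sc5d: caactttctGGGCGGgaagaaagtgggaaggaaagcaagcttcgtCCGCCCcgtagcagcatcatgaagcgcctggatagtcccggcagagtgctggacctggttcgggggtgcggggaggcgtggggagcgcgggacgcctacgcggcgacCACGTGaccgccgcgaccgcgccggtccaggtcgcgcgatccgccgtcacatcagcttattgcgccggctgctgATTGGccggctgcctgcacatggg
The search used windows of 250 bases before to 50 after a start, on both strands. The 8 members with an entry had 10 windows, 3 of them for Dhcr7. CCAAT was found in 8 of these 10 windows and in at least 1 window of every member that has an entry, against 37.4% of all 32851 windows. GGGCGG was found in 9 of 10, against 35.7% of all windows. CACGTG was found in 3 of 10 (Hsd17b7, Sc5d and Dhcr7), against 7.15%. The letters TCACNCCAC, a form of the sterol regulatory element, were in 0 of 10 windows (1.24% of all windows), and the shorter CACNCCAC, which lies within it, was also in 0 (6.24%). TCACCTCA, a variant searched after the letters had been seen, was in 2 of 10 (Cyp51 and Hsd17b7), against 1.17%. In Cyp51 it began at base -88, between a GGGCGG at -135 and a CCAAT at -29. In Nsdhl, CCAAT on the minus strand began at -109 and -20 with a GGGCGG at -52 between them. No matches overlapped each other. A match describes these letters only.

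**Figure D1:**
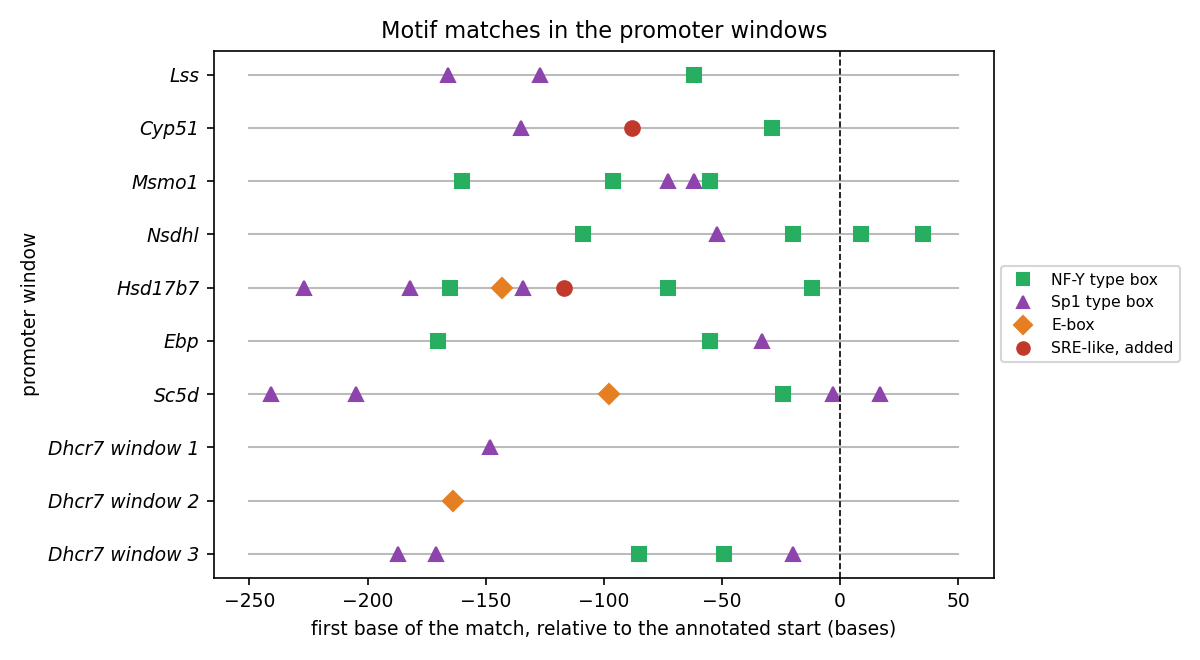
First base of each motif match (x axis, bases from the annotated start, marked by the dashed line) in the 10 promoter windows of 8 genes (y axis). Squares are CCAAT boxes, triangles GGGCGG, diamonds CACGTG and circles TCACCTCA, and every gene has at least 1 square and 1 triangle.

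The pathway opens with Sqle, squalene epoxidase, which adds oxygen to squalene and is a known point of control. Its intensity was 215.0, 465.7, 382.4, 562.3 and 615.3 in knockouts 1 to 5, and 233.6, 233.8, 205.6, 141.1 and 125.1 in controls 1 to 5. Knockouts 2 to 5 lay above every control, while knockout 1 lay below controls 1 and 2. On the log2 scale Sqle averaged 8.72 ± 0.60 in knockout and 7.51 ± 0.42 in control (SD, n = 5 each), so that knockout stood 1.21 higher (SE 0.27; interval at 95% confidence 0.62 to 1.81). It did not pass over all genes (limma adjusted p = 0.0874), and it did without knockout 1 (1.45, SE 0.21, limma adjusted p = 0.0103). When any 1 of the other arrays was left out instead, Sqle did not pass (limma adjusted p of 0.122 to 0.224).

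Lss, which folds squalene epoxide into lanosterol, the first sterol of the pathway, had intensities of 117.0, 139.2, 150.2, 194.4 and 135.2 in knockouts 1 to 5. In controls 1 to 5 it had 125.7, 119.6, 127.7, 86.7 and 90.5. Again 4 of the 5 knockouts lay above all controls and knockout 1 below 3 of them. The log2 difference was 0.42 (SE 0.15, 95% confidence interval 0.09 to 0.75, limma adjusted p = 0.298).

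Cyp51 is the cytochrome P450 that demethylates lanosterol. Its intensities were 285.6, 432.7, 384.7, 669.3 and 585.6 in knockouts 1 to 5, and 274.0, 296.2, 214.5, 141.7 and 172.1 in controls 1 to 5. The groups overlapped in 1 pair of arrays, knockout 1 and control 2, and knockout was higher in 24 of 25 pairings. The log2 difference was 1.09 (SE 0.25, 95% confidence interval 0.55 to 1.63, limma adjusted p = 0.0881). Without knockout 1 it was 1.26 (SE 0.23, limma adjusted p = 0.0299). When any 1 of the other arrays was left out instead, Cyp51 did not pass (limma adjusted p of 0.110 to 0.209).

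The 3 next genes strip further methyl groups from the sterol: Msmo1 oxidises them, Nsdhl removes the resulting carboxyl group, and Hsd17b7 reduces the ketone that is left. Nsdhl rose in knockout. Its intensities were 448.7, 622.4, 588.9, 637.8 and 625.0 in knockouts 1 to 5, against 430.2, 370.4, 403.5, 308.8 and 325.2 in controls 1 to 5. All 5 knockouts lay above all 5 controls, although knockout 1 exceeded control 1 by little. Log2 values averaged 9.18 ± 0.21 in knockout and 8.51 ± 0.20 in control (SD, n = 5 each), so that knockout stood 0.67 higher (SE 0.12; interval at 95% confidence 0.40 to 0.94; limma adjusted p = 0.0469). The call was near the threshold. It held without knockout 1 (limma adjusted p = 0.0101) and was lost when any 1 of the other 9 arrays was left out (limma adjusted p of 0.0632 to 0.151), with differences of 0.61 to 0.73 in those fits.

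Msmo1 had intensities of 452.8, 573.5, 590.7, 704.3 and 795.1 in knockouts 1 to 5, and 485.4, 587.4, 480.2, 494.4 and 442.8 in controls 1 to 5. Of the knockouts, 3 lay above all controls, and control 2 lay above knockouts 1 and 2. The log2 difference was 0.30 (SE 0.14, 95% confidence interval -0.00106 to 0.61, limma adjusted p = 0.413). For Hsd17b7 the intensities were 232.7, 232.2, 260.1, 234.4 and 324.5 in knockouts 1 to 5, and 278.6, 237.1, 210.6, 181.6 and 223.5 in controls 1 to 5. Only knockout 5 lay above all controls, and the log2 difference of 0.18 (SE 0.13, 95% confidence interval -0.10 to 0.46) did not pass (limma adjusted p = 0.621).

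The last genes rearrange double bonds of the sterol ring. Ebp shifts one, Sc5d introduces one, and Dhcr7 reduces one to leave cholesterol. Ebp intensity was 374.2 to 459.1 in knockout and 357.2 to 469.5 in control, and the highest value of all 10 arrays was control 5. The other 4 controls, at 357.2 to 373.0, lay below every knockout. Its log2 difference was 0.16 (SE 0.10, 95% confidence interval -0.06 to 0.37). Sc5d had intensities of 1135.7 to 1480.1 in knockout, against 995.6 to 1334.8 in control, a log2 difference of 0.09 (SE 0.10, 95% confidence interval -0.14 to 0.31). Dhcr7 had intensities of 436.3 to 629.9 in knockout, against 468.3 to 582.7 in control, a log2 difference of 0.04 (SE 0.11, 95% confidence interval -0.20 to 0.27). For Dhcr7 the knockout arrays held the highest and the lowest value of all 10. None of these 3 passed (limma adjusted p of 0.573 for Ebp, 0.797 for Sc5d and 0.935 for Dhcr7). The intervals leave room for an increase of up to 1.29-fold in Ebp, 1.24-fold in Sc5d and 1.21-fold in Dhcr7.

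**Figure D2:**
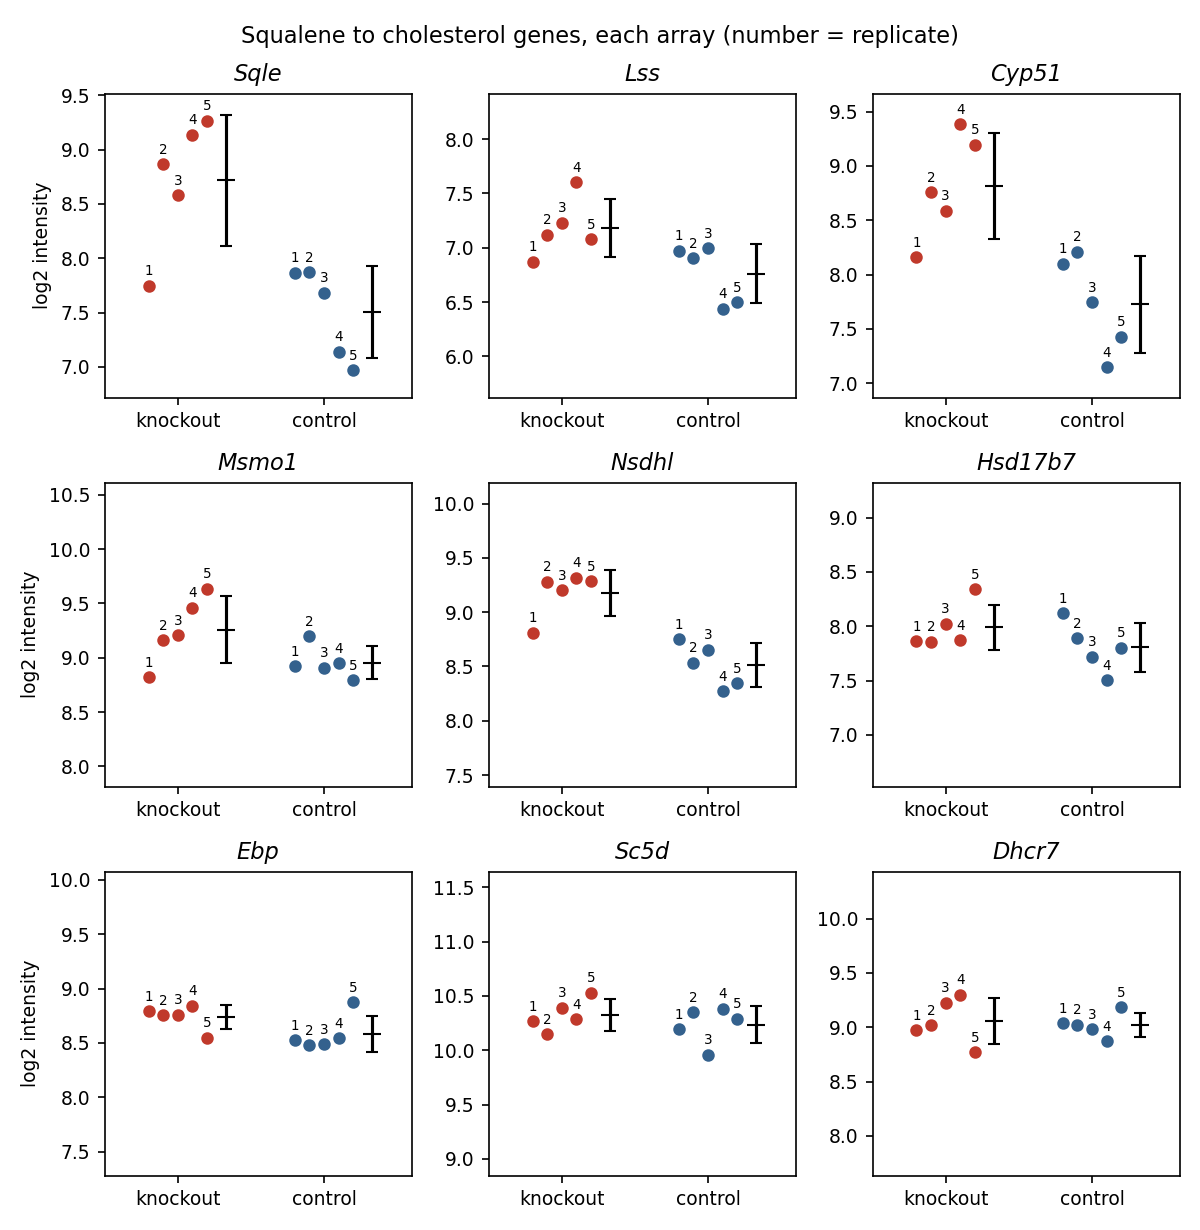
Log2 intensity (y axis, each panel spanning the same range of log2 units) of the 9 genes in the 5 knockout arrays (left, red) and the 5 control arrays (right, blue), with replicate numbers beside the points and the mean ± SD as a black mark. Sqle, Cyp51 and Nsdhl show the widest gap between groups, and knockout 1 is the lowest knockout point in Sqle, Lss, Cyp51, Msmo1 and Nsdhl.

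Along the pathway, the 5 genes from Sqle to Nsdhl had differences of 0.30 to 1.21 and the 4 from Hsd17b7 to Dhcr7 had differences of 0.04 to 0.18. This split was made after the values were seen, and the difference between the 2 stretches was not tested. Variation within a group was largest for Sqle and Cyp51, with SDs of 0.42 to 0.60 in either group, against 0.11 to 0.31 for the other 7 genes.

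Arrays of a group also differed from each other in the same direction for many members. Knockout 1 lay below the knockout mean in 8 of 9 genes and was the lowest knockout in 5, those from Sqle to Nsdhl. Knockout 4 lay above the knockout mean in 7 of 9. Knockouts 4 and 5 each held the highest value of all 10 arrays in 4 genes, and control 5 held it in Ebp. Among controls, control 4 lay below the control mean in 8 of 9 genes and control 2 above it in 8 of 9. The mean over the 9 genes, each centred on its own mean over all arrays, was -0.10, 0.20, 0.22, 0.45 and 0.39 in knockouts 1 to 5, and -0.08, -0.08, -0.23, -0.44 and -0.33 in controls 1 to 5. Knockout 1 therefore lay just below controls 1 and 2, and the other 4 knockouts lay above all controls.

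The ileum list moved with this pattern in part: knockout 1 was the lowest knockout in both lists. In a fit with the ileum mean as a covariate, the difference was 0.48 (SE 0.24, limma adjusted p = 0.762) for Sqle, 0.56 (SE 0.28, limma adjusted p = 0.758) for Cyp51 and 0.42 (SE 0.14, limma adjusted p = 0.616) for Nsdhl, and 0 of the 9 passed. Msmo1 then stood at -0.035. The median over the 9 was 0.23 in that fit. The ileum mean lay above every control in knockouts 2 to 5, so it nearly repeated the group label. The adjusted differences lean on knockout 1, the only knockout with a low ileum mean (-1.04). That mean leans on Fabp6 (difference 3.89) and Slc10a2 (2.23), while Cubn went the other way (-0.84). Group and ileum mean therefore cannot be told apart well in this fit. Proliferation markers had higher values in knockout in 9 of 9 cases, with 0 past the test. The median difference of these markers was 0.63, against 0.30 for the sterol genes. At an unadjusted p under 0.05, 6 of the 9 markers were higher, against 4 of the 9 sterol genes and 5.82% of all genes. A rise of 1.5-fold or more was reached by 6 of the 9 markers, against 3 of the 9 sterol genes and 1.18% of all genes. The proliferation list mean was -0.45 to 0.75 in knockout, against -0.86 to 0.39 in control. With that mean as a covariate the values were 1.19 (SE 0.36) for Sqle, 1.07 (SE 0.32) for Cyp51 and 0.60 (SE 0.16) for Nsdhl, and 0 of 9 passed. Lss went from 0.42 to 0.21 in that fit, while Msmo1, Hsd17b7 and Sc5d went up to 0.41, 0.31 and 0.27. Ebp stayed at 0.16 and Dhcr7 stood at -0.045. Proximal intestine markers had lower values in knockout in 5 of 7 cases, with 0 past the test. Lct, lactase, stood at -0.72 (SE 0.15, limma adjusted p = 0.0640), with all 5 knockouts below all controls. The transcription factor gene Onecut2 stood at -1.30 (SE 0.54). The rest of the list differed less: Slc40a1 -0.28, Gata4 -0.16, Fabp1 -0.0031, Cybrd1 0.0092 and Slc11a2 0.20. The proximal intestine mean, which leans on Onecut2 and Lct, was 0.34 in knockout 1 and -0.39 to -0.17 in knockouts 2 to 5. In controls it was -0.03 to 0.38, so that knockouts 2 to 5 lay below every control and knockout 1 within the control range. What part position along the gut or crypt content had in the sterol genes was not tested further. Immune markers (6 of 7 lower) and smooth muscle markers (4 of 5 lower) had 0 past the test, as did Paneth (3 of 5 higher), pancreas (1 of 2 higher), liver (2 of 4 higher) and adipose markers (1 of 3 higher). Control 4 had the highest smooth muscle mean, 1.36, against -0.43 to -0.06 in the other controls and -0.41 to 0.18 in knockouts. Control 5 had the lowest Paneth mean, -2.09, against 0.10 to 1.07 in the other controls and -0.86 to 0.73 in knockouts. Control 5 was also the lowest array in the proliferation (-0.86), immune (-0.61) and smooth muscle (-0.43) means. What part this had in its sterol gene values was not tested.

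**Figure D3:**
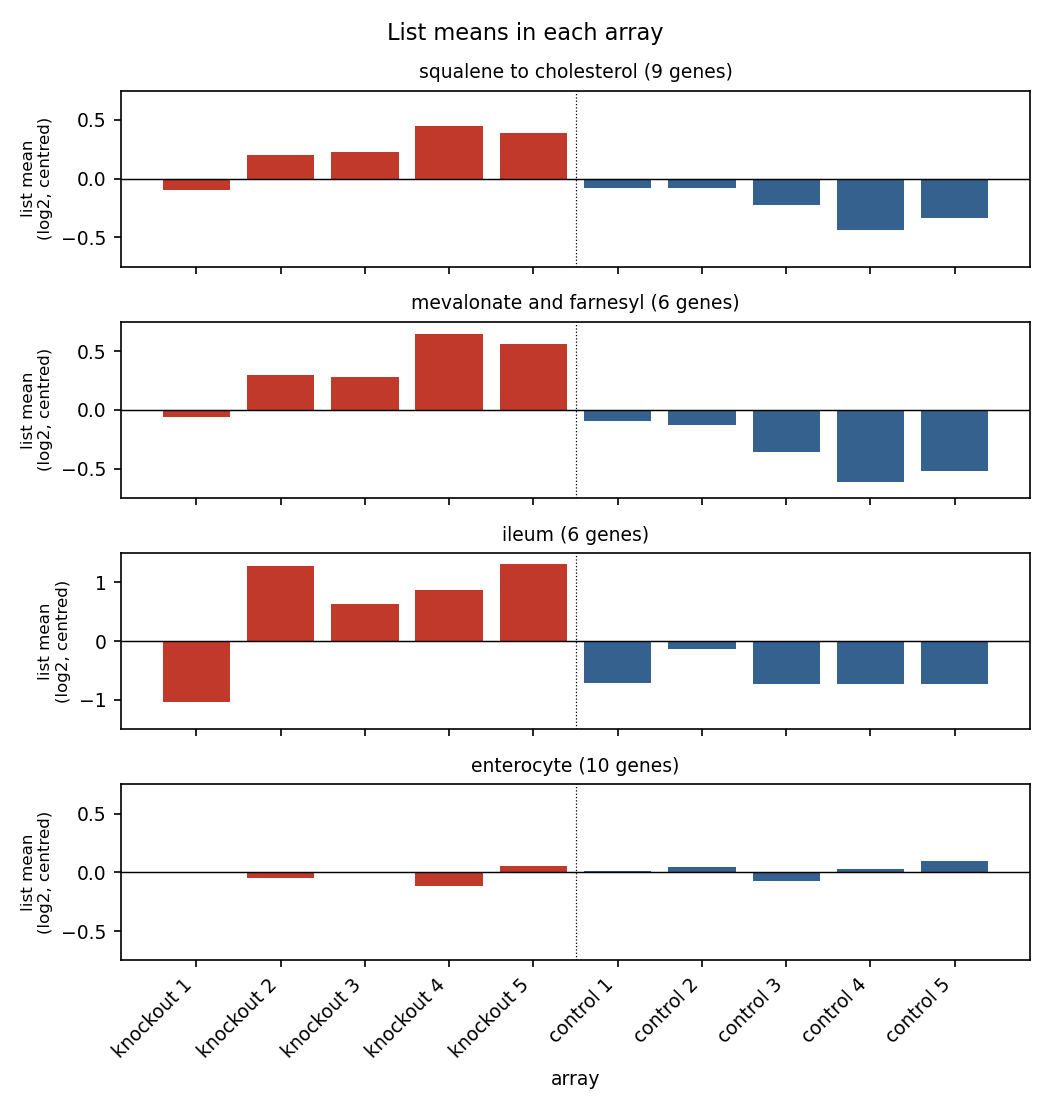
Mean of centred log2 values (y axis) in each array (x axis, knockout red on the left, control blue on the right) for the 9 squalene to cholesterol genes, 6 genes from acetyl units to squalene, 6 ileum markers and 10 enterocyte markers. The ileum panel has a wider y axis. In the top 2 panels knockout 1 sits near 0 and knockouts 4 and 5 are the highest, while in the ileum panel knockout 1 is the lowest array.

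The genes upstream of squalene gave larger values on the whole. Of 9 listed, 6 were measured, and all 6 had higher values in knockout, with a median log2 difference of 0.62. Fdps, which makes farnesyl diphosphate, was called (1.05, SE 0.16, limma adjusted p = 0.0242), and the other 5 were not: Hmgcs1 at 0.60 (SE 0.18), Mvk at 0.64 (SE 0.13), Pmvk at 0.45 (SE 0.14), Mvd at 0.55 (SE 0.13) and Fdft1, squalene synthase, at 0.83 (SE 0.19). All 6 were higher at an unadjusted p under 0.05, against 4 of the 9 genes below squalene and 5.82% of all genes. Of all genes, 0.171% were called higher. Whether the 2 stretches differ was not tested. Tm7sf2 and Lbr, alternative sterol reductases of the same pathway outside the 9, stood at 0.52 (SE 0.15, limma adjusted p = 0.166) and 0.35 (SE 0.27, limma adjusted p = 0.659).

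**Figure D4:**
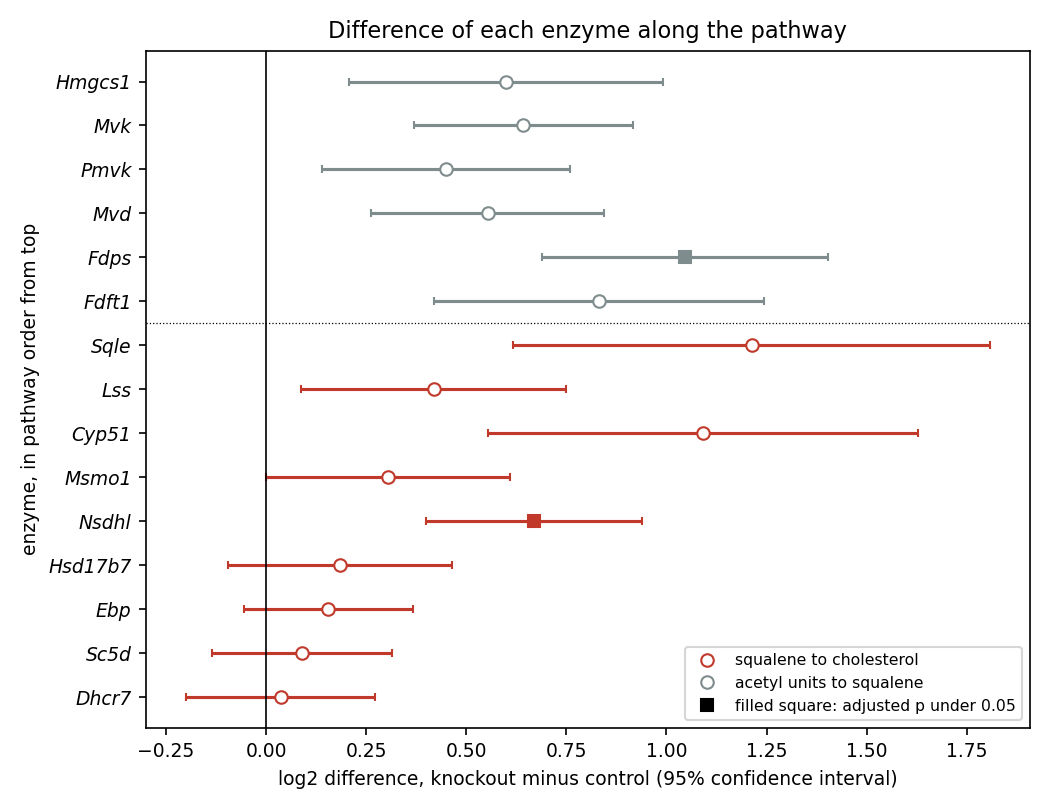
Log2 difference, knockout minus control (x axis, with 95% confidence interval), for 6 enzymes upstream of squalene (grey) and the 9 from squalene to cholesterol (red), in pathway order from the top. Filled squares are Fdps and Nsdhl, the 2 genes shown here with an adjusted p under 0.05. Values go up and down along the order, from the highest at Sqle (1.21) to the lowest at Dhcr7 (0.04).

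Several of these enzymes take electrons from partner proteins, and helpers of the pathway bind its enzymes or squalene. In that list 0 of 6 measured genes passed, 2 had higher and 4 lower values, and the median was -0.14. Sec14l2, a lipid-binding protein known to raise squalene epoxidase activity, stood at -0.42 (SE 0.16, limma adjusted p = 0.338), and Cyb5a, cytochrome b5, which feeds electrons to sterol oxidases, at -0.22 (SE 0.09, limma adjusted p = 0.354). Marchf6, the ubiquitin ligase that targets squalene epoxidase protein, stood at 0.04 (SE 0.09).

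The regulators of the pathway did not pass the test. Srebf2, the gene of SREBP2, stood at 0.44 (SE 0.13, limma adjusted p = 0.174), Scap, its escort protein, at 0.29 (SE 0.10) and Mbtps2, a protease that releases it, at 0.41 (SE 0.13). The pair of retention proteins went opposite ways in value, with Insig2 at 0.46 (SE 0.15) and Insig1 at -0.31 (SE 0.32). In all, 5 of 6 genes of SREBP processing had higher values and 0 passed. At an unadjusted p under 0.05, 4 of the 6 were higher, against 5.82% of all genes. The mean of this list was 0.03 to 0.26 in knockouts and -0.33 to -0.03 in controls, without overlap. Taken alone, 0 of the 6 genes separated the groups. The list joins genes that help release SREBP2 with the retention proteins, so its mean does not stand for 1 direction of processing. Other SREBP2 targets gave 0.43 (SE 0.17) for Tmem97 and 0.16 (SE 0.10) for Stard4, a sterol carrier. Neither passed.

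LXR, the receptor of oxidised sterols, turns on genes of sterol export when sterols are plentiful. In the LXR list 0 of 6 passed, 3 had higher and 3 lower values, and the median was -0.00103. Abca1, which exports cholesterol to lipoproteins, stood at 0.14 (SE 0.20), and Abcg5 and Abcg8, which pump sterols back to the lumen, at -0.12 (SE 0.13) and 0.18 (SE 0.17). In the list of sterol fates 0 of 5 passed, 4 had lower values and the median was -0.096. Npc1l1, the cholesterol uptake protein, stood at -0.16 (SE 0.15) and Cyp27a1, a sterol hydroxylase, at -0.57 (SE 0.20, limma adjusted p = 0.274).

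The profile of the 9 genes over the 10 arrays was then set against every other gene, by the root mean square difference in centred log2 values from the members' mean. The smallest was 0.061 log2 units for Blmh, the cysteine protease bleomycin hydrolase, followed by Srebf2 (0.095). Of the next 6, Pmvk, Mvd and Mvk of the mevalonate pathway had 0.102, 0.103 and 0.127. The mitochondrial ribosomal protein Mrpl15 had 0.122 and Pgp, phosphoglycolate phosphatase, and Shisa5, a membrane protein, both 0.125. Blmh itself stood at a difference of 0.44 (SE 0.12, limma adjusted p = 0.134), with log2 values of 7.70, 8.13, 7.92, 8.21 and 8.18 in knockouts 1 to 5 and 7.72, 7.74, 7.60, 7.44 and 7.43 in controls 1 to 5. Like the members' mean, knockout 1 lay below controls 1 and 2 there. Blmh was picked for likeness to that mean over the same arrays, so its pattern and difference are no separate support. The measure favours genes whose size of change is close to the members' mean. Sqle (0.490) and Cyp51 (0.407), which varied more, were therefore far from it, at ranks 20477 and 17631 among all genes. The mean profile thus does not represent these 2 genes, which had the largest differences. Ebp (0.285), Sc5d (0.280) and Dhcr7 (0.293), which changed little, lay nearer than Sqle and Cyp51, at ranks 4229 to 5510. Nsdhl (0.136) was the nearest member.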

How the data were processed

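Total RNA of 10 jejunum samples, 400 ng each, was labelled with the WT Plus kit, per the labels' protocols. The submitters' processing notes name Affymetrix Expression Console 1.4.1.46 and RMA for the arrays, with no further settings. Intensities were deposited by the authors on a linear scale (1.8 to 15278.7), and log2 was taken here. RMA makes arrays alike in distribution, so a shift shared by most genes would not be visible. The number of arrays limits the precision.

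Groups and replicate numbers come from sample titles. No label says outright that arrays are separate animals, so p-values measure the spread between samples, which may be technical in part. Of 41345 probe sets, 23521 carried 1 symbol in GEO's platform annotation; per gene the one with the highest mean was kept (22180 genes, of which 21994 were found in RefSeq by Entrez identifier). Limma 3.58.1 (R 4.3.3; lmFit, eBayes, group only) was used with Benjamini-Hochberg adjustment over all genes, called under 0.05, after tests on simulated data. The members, gene lists and alternatives were chosen with earlier results of these data known. Named genes were the members, Pcyt1a, genes of the sterol lists, and the 8 nearest profiles, leaving out numbered gene models. Some cell type markers were also named, which was not planned. Listed genes with no value here were not analysed here. Alternatives covered array scaling, a filter on dim genes, probe set choice, variance model, array weights, the replicate block, omitted arrays, 2 covariates, the threshold and an offset of 16. Deviations of same-numbered arrays from their group means correlated at only -0.13 to 0.12. For no knockout was the same-numbered control the best match, so the numbers were not taken as pairs.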

Additional observations from a re-analysis of the deposited data

Results flagged for a closer look

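Of 18 groups of 5 arrays checked (9 genes in each of the 2 groups), 2 held an array far from the others, and chance gives about 1 in 20. Nsdhl in knockout 1 had a log2 intensity of 8.81, against 9.20 to 9.32 in the other knockouts. Ebp in control 5 had a log2 intensity of 8.87, against 8.48 to 8.54 in the other controls. Knockout 1 also had the lowest ileum list mean of all arrays, and the part this had in its Nsdhl value was not tested. Control 5 had the lowest Paneth list mean of all arrays, and the part this had in its Ebp value was not tested either.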

How the results depend on the processing

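Of the 9 genes, 1 was called with all arrays. The count was 0 after a shift to a shared array median (Nsdhl limma adjusted p = 0.0516), with all probe sets tested, with the replicate number as a block, and with the ileum or the proliferation list as a covariate. It was 2 with knockout 1 and control 5 both left out, and 3 at a threshold of 0.1. With 1 array left out it ran from 0 to 3. The replicate block left the differences as they were, with an adjusted p of 0.115 for Nsdhl. The median of the 9 differences ran from 0.21 to 0.41 with 1 array left out and kept its direction in every alternative run. Over 22 alternatives Nsdhl passed in 8, Sqle in 2, Cyp51 in 1 and the other 6 genes in 0. Dhcr7 changed sign without knockout 3 (-0.00599), knockout 4 (-0.024) or control 4 (-0.000892; from -0.024 to 0.11 with 1 array left out) and with the proliferation covariate (-0.045), and Msmo1 did with the ileum covariate (-0.035). The cause was not tested. Over all genes the count was 76, against 39 with all probe sets, 27 with the block, 142 with array weights, 186 without knockout 1 and control 5, 3 and 118 with the ileum and proliferation covariates, 261 at 0.1, and 11 to 268 with 1 array left out.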
